A study of Mus musculus with 10 samples.

Results

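The genes described here carry, export and take up lipid in the brain. They are 3 apolipoproteins (Apoe, Clu, Apod), 2 lipid exporters (Abca1, Abcg1), the plasma and brain enzyme Lcat, and 3 lipoprotein or sorting receptors (Lrp1, Lrp8, Sorl1). They were chosen by symbol, and all 9 are among the 31510 genes of the deposited table. The libraries came from hippocampi of male APP/PS1 mice, injected in the tail vein at 8 months of age and dissected 2 months later. In the AAV8-irisin group, 5 mice received an AAV8 vector for FLAG-tagged irisin, a circulating peptide released by exercising muscle. In the AAV8-GFP group, 5 mice received the same kind of vector for the fluorescent protein GFP. The study's stated aim was to raise irisin in the blood from the liver and to ask what it does in the brain. All 10 mice carried mutant APP and PS1 transgenes, which make the brain deposit amyloid, and all had received a virus, so neither effect is measured here. The sources used here did not give the promoter of the vectors.

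Astrocytes and microglia load cholesterol and phospholipid onto secreted apolipoproteins, and neurons take up the particles through receptors of the LDL receptor family. ABCA1 moves lipid onto lipid-poor apoE, ABCG1 adds more, and LCAT esterifies the cholesterol on the particle. In amyloid-bearing brain, apoE and clusterin bind amyloid-beta, and LRP1 and SORL1 act in the uptake and sorting of amyloid-beta or its precursor protein. Liver X receptors (LXRs), nuclear receptors that sense sterols, switch on Abca1, Abcg1 and Apoe.

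Values are DESeq2 normalised counts, read counts scaled by the authors to make libraries comparable. The 9 genes together held 0.345% to 0.399% of the normalised counts of a library. Libraries were 1 per mouse, with totals of 35300000 to 36600000 normalised counts in which 1 read was worth an estimated 0.882 to 1.17. Hippocampal markers were high in every library, with Prox1, a dentate granule cell gene, between 3417 and 4505 and Camk2a between 120202 and 179445 normalised counts. Fndc5, the gene irisin comes from, lay between 2394 and 2653 in AAV8-irisin and between 2515 and 2716 in AAV8-GFP hippocampi, and it does not check the labels because the vector was given to reach the liver. AAV8-GFP mouse 1 stood apart from the other libraries. The median absolute deviation of its genes from the 10-library median was 0.126 on the log2 scale, against 0.0597 to 0.0804 in the other libraries. Results that rest on this mouse are given with and without it.

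None of the 9 genes differed between AAV8-irisin and AAV8-GFP at the threshold, an adjusted p under 0.05 by limma over all 17556 genes tested. The background was 0 genes called, or 0%. The smallest adjusted p among the 9 was 0.942. At an unadjusted p under 0.05 by limma, 1 of the 9 passed (Lrp1, lower in AAV8-irisin), where 4.49% of all tested genes did, 2.21% lower and 2.28% higher. In none of the 9 did the groups fail to overlap, where 0.803% of all tested genes had groups that did not overlap. The mean of the log2 values was higher in AAV8-irisin in 4 of the 9 and lower in 5, and it was lower in 49.5% of all tested genes. Counts of higher and lower means in lists of genes are on this scale too. The median log2 difference of the 9 was -0.024, beside 0.00099 over all tested genes. Each 95% interval is for 1 gene, with no adjustment for the reading of 9 genes, so larger changes are not excluded. Over the 9 genes the lowest bound was a difference of -18.4% (Lrp1) and the highest 21.6% (Apod). Hippocampus was measured as bulk tissue, where fewer cells of a type and less RNA per cell cannot be told apart.

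**Figure D1:**
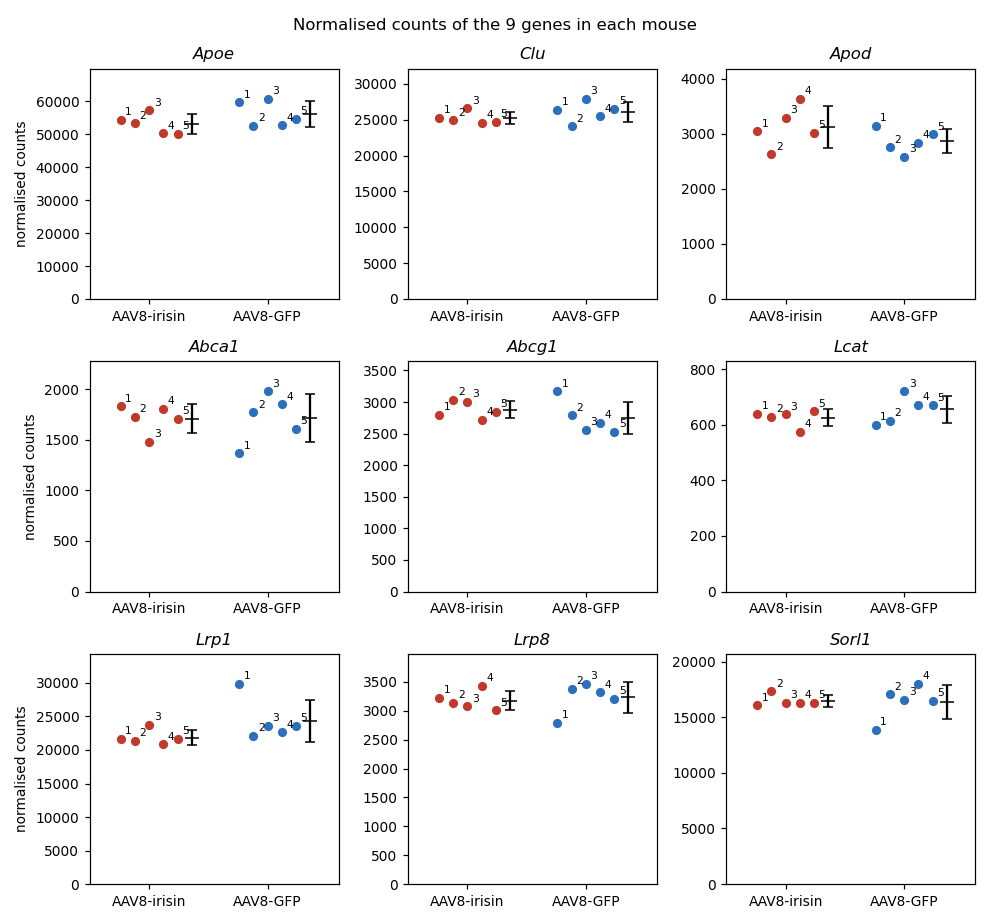
Normalised counts of each gene in each mouse, with AAV8-irisin in red and AAV8-GFP in blue, and every axis starting at 0. Digits are mouse numbers, and the bar is the mean ± SD of 5 mice. The groups overlap in every panel, and AAV8-GFP mouse 1 is the highest in Lrp1 and the lowest in Abca1, Lrp8 and Sorl1.

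Among the apolipoproteins, Apoe and Clu were the most abundant of the 9 genes and Apod was not. Apoe (ENSMUSG00000002985.16, chromosome 7, 19696109 to 19699188, minus strand), the main lipid carrier of the brain, ranked 37 among the 17556 tested genes by normalised count. It had 54334, 53343, 57266, 50223 and 50091 normalised counts in AAV8-irisin mice 1 to 5, against 59671, 52572, 60808, 52749 and 54715 in AAV8-GFP mice 1 to 5. Mice 4 and 5 of AAV8-irisin lay below every AAV8-GFP mouse, mice 1 and 3 of AAV8-GFP lay above every AAV8-irisin mouse, and the rest overlapped. Means were 53051 ± 3011 in AAV8-irisin and 56103 ± 3889 in AAV8-GFP (SD, n = 5 each). The log2 difference was -0.080 with a standard error of 0.049 (limma, adjusted p = 0.942), which is -5.38% with a 95% interval of -12.0% to 1.72%. The exact permutation test over mice gave p = 0.198. Leaving out AAV8-GFP mouse 3 gave a log2 difference of -0.050.

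Clu (chromosome 14, 65968483 to 65981547, plus strand) encodes clusterin, a secreted chaperone also called apolipoprotein J. It had 25259, 24910, 26573, 24577 and 24683 normalised counts in AAV8-irisin mice 1 to 5, against 26392, 24096, 27931, 25467 and 26498 in AAV8-GFP mice 1 to 5. AAV8-GFP mice held both the highest and the lowest value, so the AAV8-irisin mice fell within their range. Its log2 difference was -0.048 with a standard error of 0.038, or -3.29% with an interval of -8.63% to 2.37% (limma, adjusted p = 0.942). This was the narrowest interval of the 9 genes. Without AAV8-GFP mouse 3 the log2 difference was -0.023, and without AAV8-GFP mouse 2 it was -0.076.

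Apod (chromosome 16, 31296192 to 31314808, minus strand) encodes a lipocalin that is unrelated in fold to apoE and is made by oligodendrocytes and fibroblasts. Its normalised counts were 3047, 2630, 3294, 3642 and 3016 in AAV8-irisin mice 1 to 5, against 3151, 2753, 2583, 2839 and 2996 in AAV8-GFP mice 1 to 5. Mice 3 and 4 of AAV8-irisin lay above every AAV8-GFP mouse and the other AAV8-irisin mice overlapped with them. At 0.12 ± 0.075 (SE), its log2 difference was the largest positive one of the 9 (limma, adjusted p = 0.942), and its interval ran from -2.72% to 21.6%. It was 0.064 without AAV8-irisin mouse 4. That mouse also had the highest summed choroid plexus markers, 7843 normalised counts, where the other AAV8-irisin mice had 4959 to 5825 and AAV8-GFP mice had 4395 to 5500. All 9 tested choroid plexus markers of 11, and all 10 oligodendrocyte markers, had a higher mean in AAV8-irisin. None of the markers was at 0 in any library. Summed oligodendrocyte markers were 65521 to 78214 in AAV8-irisin and 56926 to 75886 in AAV8-GFP. Without AAV8-irisin mouse 2 the Apod log2 difference was 0.18. The part of these cell types in the Apod values was not tested.

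Neither lipid exporter passed the test, and the Abca1 difference was near 0. Abca1 (chromosome 4, 53030787 to 53159895, minus strand), the transporter that loads apoE, had 1831, 1724, 1477, 1807 and 1704 normalised counts in AAV8-irisin mice 1 to 5. In AAV8-GFP mice 1 to 5 it had 1364, 1769, 1978, 1849 and 1606. Mouse 1 of AAV8-GFP was the lowest of all 10 and mouse 3 of AAV8-GFP the highest, so both ends of the range were control mice. Between the groups the log2 difference came to 0.0036, standard error 0.088 (limma, adjusted p = 0.996), with an interval of -12.0% to 14.2%. Without AAV8-GFP mouse 1 it was -0.076.

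Abcg1 (chromosome 17, 31057675 to 31117988, plus strand), which adds lipid to particles that ABCA1 has started, had 2794, 3035, 3008, 2719 and 2850 normalised counts in AAV8-irisin mice 1 to 5. AAV8-GFP mice 1 to 5 had 3172, 2791, 2559, 2673 and 2534. The highest value belonged to AAV8-GFP mouse 1, while the AAV8-GFP median of 2673 was below all 5 AAV8-irisin mice. The log2 difference was 0.073 with a standard error of 0.058 (limma, adjusted p = 0.942). Without AAV8-GFP mouse 1 it was 0.13, and limma gave an unadjusted p of 0.0108 (adjusted p = 0.982), which did not pass. It was 0.045 without AAV8-GFP mouse 5.

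Lcat (chromosome 8, 105939551 to 105943382, minus strand), which esterifies cholesterol on lipoproteins, was the least abundant of the 9 by normalised count. It had 639, 628, 637, 573 and 648 in AAV8-irisin mice 1 to 5, against 600, 614, 720, 672 and 670 in AAV8-GFP mice 1 to 5. All 5 AAV8-irisin mice lay below the AAV8-GFP median of 670, though only mouse 4 lay below every AAV8-GFP mouse. By limma it differed by a log2 value of -0.066 with a standard error of 0.061 (adjusted p = 0.942). That value was -0.032 without AAV8-GFP mouse 3 and -0.036 without AAV8-irisin mouse 4.

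The promoter windows of Abca1, Apoe and Lrp8 are shown because Abca1 and Apoe are known LXR targets and because Abca1 and Lrp8 had the highest Pearson r of the 36 pairs of these genes, which missed the adjusted threshold. Sequences are RefSeq windows of GRCm38.p6 that run 5′ to 3′ along the gene from 250 bases before a RefSeq start to 50 after it. The Lrp8 window shown, the first of its windows, lies inside the gene bounds given for Lrp8, which begin at 107802261. It is therefore not the sequence upstream of that position. They lie at chr4:53159846-53160145 (minus strand) for Abca1, chr7:19699139-19699438 (minus strand) for Apoe and chr4:107802635-107802934 (plus strand) for Lrp8. Capitals mark matches to the LXR element or to the E-box.
Abca1: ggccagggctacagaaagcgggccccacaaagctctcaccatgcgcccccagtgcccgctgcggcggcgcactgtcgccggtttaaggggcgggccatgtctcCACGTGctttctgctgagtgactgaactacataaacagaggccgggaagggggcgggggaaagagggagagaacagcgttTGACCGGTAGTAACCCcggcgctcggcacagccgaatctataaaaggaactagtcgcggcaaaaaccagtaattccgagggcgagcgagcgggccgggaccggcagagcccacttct
Apoe: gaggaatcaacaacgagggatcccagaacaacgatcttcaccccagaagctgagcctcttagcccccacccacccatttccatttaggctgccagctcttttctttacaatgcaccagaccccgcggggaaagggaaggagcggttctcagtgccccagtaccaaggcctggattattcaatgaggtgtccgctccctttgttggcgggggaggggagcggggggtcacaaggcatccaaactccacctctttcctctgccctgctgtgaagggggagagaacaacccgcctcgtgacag
Lrp8: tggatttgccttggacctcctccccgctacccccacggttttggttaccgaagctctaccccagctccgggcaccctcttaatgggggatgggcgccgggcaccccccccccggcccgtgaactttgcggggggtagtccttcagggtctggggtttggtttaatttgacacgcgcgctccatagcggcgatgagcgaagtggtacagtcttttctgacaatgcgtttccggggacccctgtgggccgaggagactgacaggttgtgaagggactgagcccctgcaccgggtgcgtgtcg

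An LXR element was searched on both strands as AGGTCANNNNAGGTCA, with up to 3 mismatches outside the spacer, as was its repeat unit AGGTCA alone, which is part of it, and the E-box CACGTG. In Abca1 the window held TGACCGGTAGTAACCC, a match on the opposite strand with 3 mismatches that starts 67 bases before the gene's start (chr4:53159947-53159962), and 1 E-box. Neither the Apoe nor the Lrp8 window shown held any of these letters within the mismatch limit. With up to 3 mismatches the element was common, in 21.9% of 32851 windows of all genes, against 3.02% with up to 2. The unit and the E-box, searched without mismatches, were in 16.3% and 7.15% of these windows. RefSeq windows were matched for 7 of the 9 genes, 12 windows in all, and the element was found in 3 of them (Abca1, Lcat and the second window of Sorl1), the unit in 1 (the third window of Lrp8) and the E-box in 2 (Abca1 and the first window of Sorl1). Clu and Abcg1 were not matched.

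The receptor Lrp1 had the smallest p of the 9. Lrp1 (chromosome 10, 127538161 to 127621148, minus strand), a very large endocytic receptor for apoE and many other ligands, had 21647, 21342, 23761, 20824 and 21704 normalised counts in AAV8-irisin mice 1 to 5. AAV8-GFP mice 1 to 5 had 29858, 22070, 23595, 22612 and 23585. All AAV8-irisin mice but mouse 3 lay under the AAV8-GFP minimum, and AAV8-GFP mouse 1 lay far above the other 9. Means were 21856 ± 1121 in AAV8-irisin and 24344 ± 3151 in AAV8-GFP (SD, n = 5 each). The log2 difference was -0.15 with a standard error of 0.068, or -9.76% with an interval of -18.4% to -0.216%. The unadjusted p was 0.0459 and the adjusted p 0.942 by limma, and the exact permutation test gave p = 0.0635, where the smallest p this design can give is 0.00794. Without AAV8-GFP mouse 1 the log2 difference was -0.072, less than in any other omission of 1 mouse, with an unadjusted p of 0.066 by limma.

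Lrp8 (chromosome 4, 107802261 to 107876840, plus strand) encodes apoE receptor 2, which neurons use to receive the matrix protein reelin. It had 3221, 3134, 3075, 3435 and 3004 normalised counts in AAV8-irisin mice 1 to 5, against 2786, 3382, 3465, 3318 and 3206 in AAV8-GFP mice 1 to 5. The AAV8-irisin mice all fell within the AAV8-GFP range, whose lowest member was mouse 1. Its groups differed by -0.024 on the log2 scale with a standard error of 0.057 (limma, adjusted p = 0.969), and -0.076 without that mouse.

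Sorl1 (chromosome 9, 41964720 to 42124297, minus strand) encodes a sorting receptor that returns the amyloid precursor protein from endosomes to the Golgi. Its exons overlap those of Gm16214, an antisense gene, and without a stated strand setting reads of the pair cannot be told apart. It had 16058, 17328, 16301, 16295 and 16291 normalised counts in AAV8-irisin mice 1 to 5, against 13884, 17063, 16585, 17997 and 16459 in AAV8-GFP mice 1 to 5. Apart from mouse 2, the AAV8-irisin mice were nearly equal, and they lay inside the AAV8-GFP range. Between groups the log2 difference was 0.0098 with a standard error of 0.055 (limma, adjusted p = 0.985), and -0.049 without AAV8-GFP mouse 1.

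**Figure D2:**
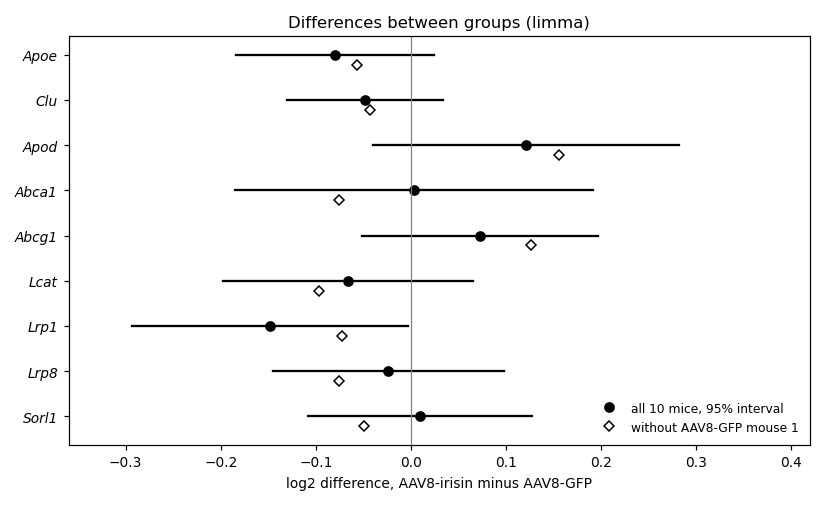
Log2 difference of each gene, AAV8-irisin minus AAV8-GFP, from limma. Filled circles with lines are all 10 mice with the 95% interval, and open diamonds leave out AAV8-GFP mouse 1. The Lrp1 line alone ends short of 0, at an upper bound of -0.0031, and its diamond moves toward 0.

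Levels of different genes were compared per kilobase of annotated exon, since longer transcripts give more reads. Apoe was first at 24810 ± 1408 normalised counts per kb in AAV8-irisin and 26240 ± 1819 in AAV8-GFP (SD, n = 5 each). Clu followed with 7332 ± 236 in AAV8-irisin and 7587 ± 412 in AAV8-GFP, and Apoe exceeded it 3.42-fold over all mice. Sorl1, Lrp1 and Apod formed the next tier, with 1453, 1234 and 1213 normalised counts per kb in AAV8-irisin and 1448, 1374 and 1111 in AAV8-GFP. The ranges of neighbours in this tier overlapped, and each neighbour held its place in 9 of the 10 mice. Lcat, Abcg1 and Lrp8 had 466, 395 and 302 in AAV8-irisin and 488, 376 and 307 in AAV8-GFP, with overlap between Lcat and Abcg1 and none between Abcg1 and Lrp8. Abca1 was last, with 165 in both groups. With the longest transcript as length, Apoe and Clu had 38760 and 14160 over the 10 mice, a smaller fold than by exon length. Lrp1 then came before Sorl1. Lrp8, Abcg1 and Lcat, in that order, lay close together at 483, 482 and 477 over the 10 mice. Lcat, which has the shortest exon length of the 9, thus ranked above the much longer Abca1 per kb despite its lower normalised count.

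**Figure D3:**
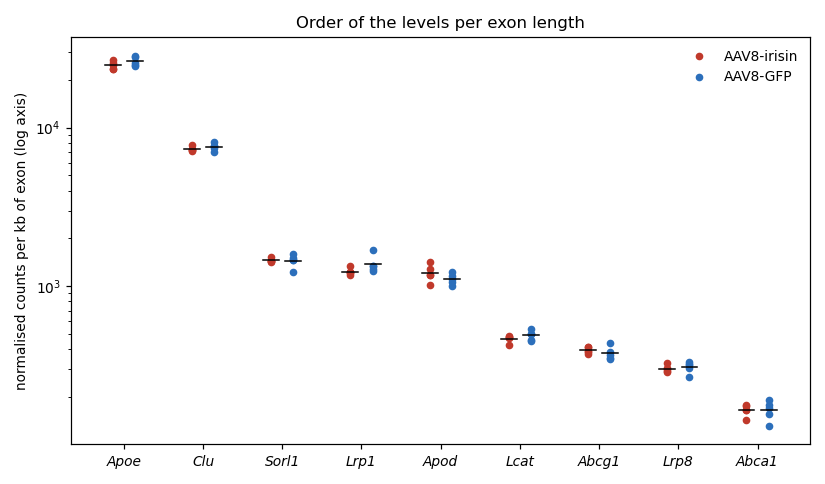
Normalised counts per kb of exon on a log axis, ordered by the mean of 10 mice. Points are mice, AAV8-irisin left of AAV8-GFP, and lines are group means. Apoe and Clu lie above the rest, and the groups overlap within each gene.

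Variation between mice was set against all tested genes and not against genes of like level. The least abundant of the 9, Lcat, exceeded 52.3% of tested genes in level. The SDs that follow therefore do not show whether the 9 vary little for their level. The SD of log2 values within groups was 0.104 at the median of the 9 genes, against 0.122 over all tested genes, and it was below that all-gene median in 6 of the 9. Clu varied least, with an SD lower than that of all but 16.4% of tested genes, and Abca1 most. The highest and lowest values were unevenly spread over the mice. Of the 18 extremes (the highest and the lowest mouse of each gene), 11 fell on AAV8-GFP mice 1 and 3. These mice also had the largest median absolute deviations over all tested genes, 0.126 and 0.0804, against 0.0597 to 0.0709 in the others. Extremes were not counted over all tested genes. Whether their uneven spread was particular to the 9 genes was therefore not tested. Relative to the 10-mouse median, AAV8-GFP mouse 1 deviated by 0.42 in Lrp1, 0.18 in Abcg1 and 0.15 in Apoe on the log2 scale, and by -0.36 in Abca1, -0.24 in Sorl1 and -0.21 in Lrp8. AAV8-GFP mouse 3 deviated the other way in Abca1 (0.18), Abcg1 (-0.13), Lrp8 (0.11) and Sorl1 (0.018), and the same way in Apoe (0.18) and Lrp1 (0.079). The SD of log2 values was larger in AAV8-GFP than in AAV8-irisin in 8 of the 9 genes and in 62.9% of all tested genes. These were 5 of the 9 and 50.1% without AAV8-GFP mouse 1.

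**Figure D4:**
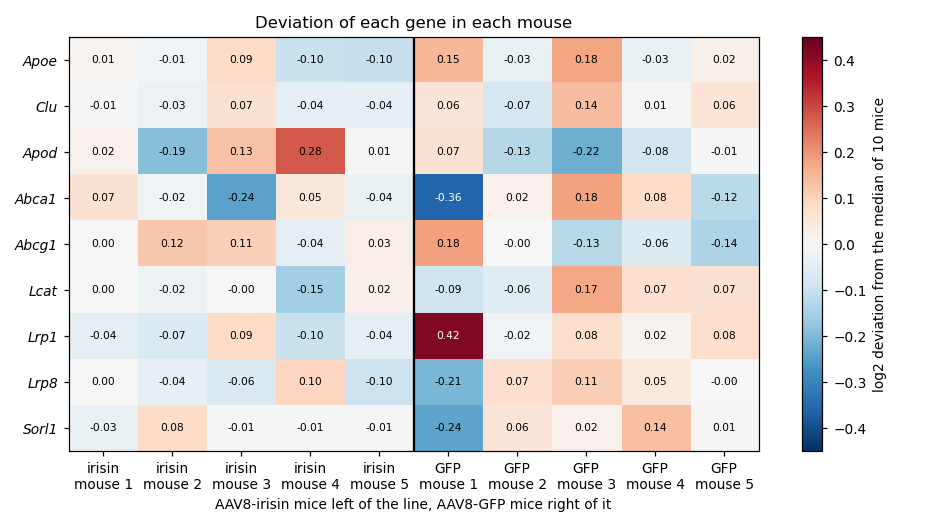
Log2 deviation of each gene in each mouse from its median over the 10 mice, with AAV8-irisin mice left of the line and AAV8-GFP mice right of it. The AAV8-GFP mouse 1 column holds the strongest red (Lrp1, 0.42) and the strongest blue (Abca1, -0.36).

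Relations between the 9 genes were examined over the 10 mice after subtracting group means, in 36 pairs. Apoe and Clu rose and fell together, with Pearson r = 0.849 and Spearman rho = 0.891. The exact permutation within groups gave p = 0.000833 for r, adjusted p = 0.03 over the 36 pairs, and p = 0.00403 for rho, adjusted p = 0.1. Without the 2 mice farthest out in Apoe, mouse 3 of each group, r was 0.674 with an exact permutation p of 0.148, so the relation rests in part on those mice. It was the only pair that passed the adjusted threshold for r, and no pair passed for rho. The libraries share their scaling, which bears on all of these values.

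Abca1 and Lrp8, both lowest in AAV8-GFP mouse 1, had r = 0.858 and rho = 0.806, with exact permutation p = 0.0041 for r (adjusted p = 0.0738) and p = 0.00556 for rho (adjusted p = 0.1). Without AAV8-GFP mouse 1 and AAV8-irisin mouse 3, the farthest out in Abca1, r was 0.68 (exact permutation p = 0.0156). Abca1 and Abcg1 had opposite signs, with r = -0.736 and rho = -0.539 (exact permutation p = 0.0435 for r, adjusted p = 0.196, and p = 0.167 for rho, adjusted p = 0.546). That relation rested on the same 2 mice, for r was -0.167 without them. Lrp1 and Sorl1 had r = -0.872 and rho = -0.685 (exact permutation p = 0.034 for r, adjusted p = 0.196, and p = 0.0552 for rho, adjusted p = 0.375), and r was -0.622 without these mice, with an exact permutation p of 0.156.

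**Figure D5:**
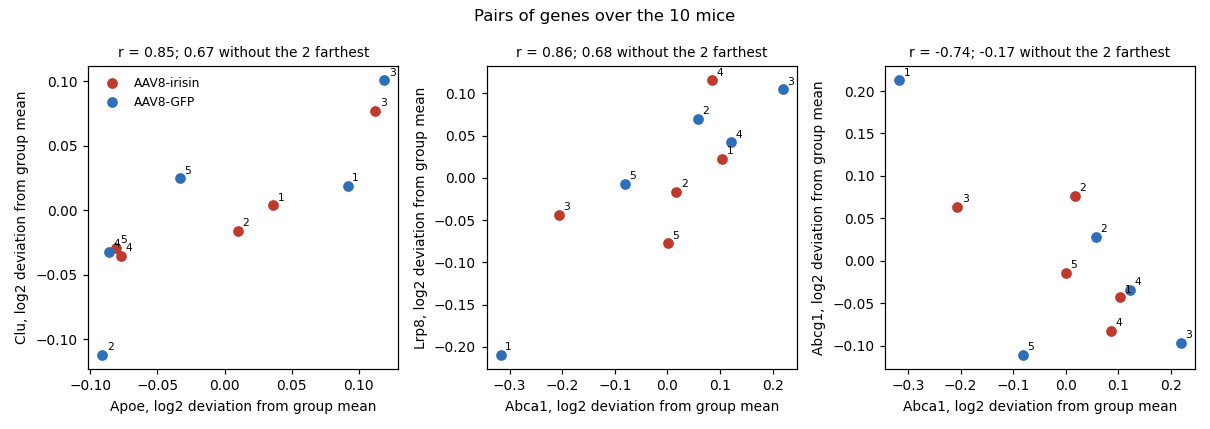
Log2 deviations from the group mean of Clu against Apoe, Lrp8 against Abca1 and Abcg1 against Abca1, 1 point per mouse, with AAV8-irisin in red and AAV8-GFP in blue. Digits are mouse numbers. Apoe and Clu rise together, and AAV8-GFP mouse 1 lies at the far end of both Abca1 panels.

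Each gene was also set against the mean log2 level of 10 lists of cell type markers, in 90 relations chosen after the gene values had been seen. None passed an adjusted p of 0.05. The smallest exact permutation p was that of Lrp1 with the 10 neuron markers, r = -0.924 and rho = -0.855 (p = 0.000764 for r, adjusted p = 0.0604, and p = 0.00118 for rho, adjusted p = 0.106). That r was -0.774 without AAV8-GFP mice 1 and 2. Summed neuron markers lay between 357540 and 375710 normalised counts in AAV8-irisin and between 332929 and 403532 in AAV8-GFP. The lowest sum was in AAV8-GFP mouse 1, which was highest in Lrp1. The highest sum was in AAV8-GFP mouse 3, which was highest in Apoe and Clu. The relations used mean log2 levels and not these sums. Clu followed plaque-associated microglia markers with r = 0.8 and rho = 0.806 (exact permutation p = 0.00174 for r, adjusted p = 0.0604, and p = 0.00556 for rho, adjusted p = 0.109), and r was 0.863 without the 2 farthest mice. Apoe had r = 0.774 and rho = 0.818 with the same list (exact permutation p = 0.0208 for r, adjusted p = 0.188, and p = 0.00424 for rho, adjusted p = 0.109), and r was 0.744 without those mice. With neuron markers Apoe had r = -0.769 and rho = -0.842 (exact permutation p = 0.00833 for r, adjusted p = 0.125, and p = 0.0128 for rho, adjusted p = 0.165), and r was -0.867 without AAV8-GFP mice 1 and 2. Clu had r = -0.683 and rho = -0.782 with neuron markers (exact permutation p = 0.095 for r, adjusted p = 0.478, and p = 0.0258 for rho, adjusted p = 0.195), and r was -0.852 without AAV8-GFP mice 1 and 2 and -0.912 without AAV8-GFP mouse 1 alone. Means of all 12 tested markers of plaque-associated microglia were lower in AAV8-irisin, as were those of Apoe and Clu. Their summed level was 20442 to 26068 normalised counts in AAV8-irisin and 22181 to 29566 in AAV8-GFP, and none was at 0 in any library. Means of all 11 markers of the separate microglia list were lower in AAV8-irisin too. With that list Clu had r = 0.781 (exact permutation, adjusted p = 0.139) and rho = 0.842 (adjusted p = 0.109). Apoe had r = 0.724 (exact permutation, adjusted p = 0.233) and rho = 0.77 (adjusted p = 0.186). Without AAV8-irisin mouse 1 and AAV8-GFP mouse 3, these r were 0.759 for Clu and 0.617 for Apoe. The part of these cells and of neurons in the Apoe and Clu values was not tested.

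Apod had r = 0.865 and rho = 0.855 with choroid plexus markers (exact permutation p = 0.0066 for r, adjusted p = 0.125, and p = 0.00688 for rho, adjusted p = 0.109). Without AAV8-irisin mice 2 and 4, r was 0.649, with an exact permutation p of 0.114. With oligodendrocyte markers Apod had r = 0.716 (exact permutation p = 0.00743, adjusted p = 0.125). Its rho with them was 0.758 (exact permutation p = 0.00729, adjusted p = 0.109). That r was 0.418 without AAV8-irisin mouse 2 and AAV8-GFP mouse 3, with an exact permutation p of 0.247. Lcat had r = 0.853 and rho = 0.758 with astrocyte markers (exact permutation p = 0.00201 for r, adjusted p = 0.0604, and p = 0.0405 for rho, adjusted p = 0.28), and r was 0.764 without AAV8-GFP mice 1 and 3. Summed astrocyte markers were 181628 to 189760 normalised counts in AAV8-irisin and 172269 to 217255 in AAV8-GFP. With the same markers Apoe had r = 0.296 and rho = 0.479 (exact permutation p = 0.553 for r, adjusted p = 0.889, and p = 0.269 for rho, adjusted p = 0.915). That r was 0.716 without AAV8-GFP mouse 1, with an exact permutation p of 0.00625. Clu had r = 0.57 with astrocyte markers (exact permutation p = 0.195, adjusted p = 0.606). Its rho with them was 0.685 (exact permutation p = 0.076, adjusted p = 0.403). For Clu, r was 0.811 without AAV8-GFP mice 1 and 3 (exact permutation p = 0.00556). Without AAV8-GFP mouse 1 alone it was 0.809 (exact permutation p = 0.0128).

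Among 12313 genes with a mean of at least 100 normalised counts, those whose deviations over the 10 mice were most like each of the 9 were picked out by Pearson r, with no test. They were Cst3 (r = 0.967) and Hsd17b11 (0.964) for Apoe, Ly86 (0.946) and Coro2b (0.933) for Clu, and Maf (0.921) and Tcf7l1 (0.908) for Apod. Casc4 (r = 0.968) and Tnrc6c (0.962) were most like Abca1, Dnajb5 (0.97) and Snhg20 (0.967) most like Abcg1, and Fbxl2 (0.955) and Pygl (0.938) most like Lcat. For the receptors they were Mrpl4 (r = 0.978) and Erp29 (0.977) with Lrp1, Cd2ap (0.968) and Cacna2d3 (0.951) with Lrp8, and Garem1 (0.968) and Plppr4 (0.967) with Sorl1. Without AAV8-GFP mouse 1 these 18 values of r lay between 0.878 and 0.966. A maximum over so many genes is high by its selection.

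Other genes of lipoprotein biology were read from 6 lists with 92 distinct genes, of which 80 passed the filter on low values. By limma 0 of the 80 were called higher and 0 lower at an adjusted p under 0.05, and 40 had a higher and 40 a lower mean. Their median log2 difference was -0.00054. An unadjusted p under 0.05 was found for 3 of them, against 4.49% of all tested genes. They were Lrp10, Abca8a and Src.

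Receptors and sorting receptors, 25 genes, divided into 14 higher and 11 lower means (median log2 difference 0.0078). Lrp10, another member of the LDL receptor family, had 1323, 1262, 1239, 1308 and 1280 normalised counts in AAV8-irisin mice 1 to 5, against 1176, 1206, 1218, 1169 and 1212 in AAV8-GFP mice 1 to 5. Every AAV8-irisin mouse lay above every AAV8-GFP mouse, which held for 0.803% of all tested genes in either direction. The log2 difference was 0.10 with a standard error of 0.039 (limma, adjusted p = 0.942), and the exact permutation p of 0.00794 is the smallest this design can give. Stab1, a scavenger receptor of macrophages and sinusoidal endothelium, had 527 ± 86.1 in AAV8-irisin and 615 ± 77.6 normalised counts in AAV8-GFP (SD, n = 5 each). In the reelin pathway, 7 of 10 genes had a higher mean. Src, a tyrosine kinase that acts downstream of the reelin receptors, had 5261 ± 148 normalised counts in AAV8-irisin and 5553 ± 141 in AAV8-GFP, and 4 of the 5 AAV8-irisin values were under the AAV8-GFP minimum (limma, adjusted p = 0.942). Dab1, the adaptor that binds those receptors, had 4660 ± 160 in AAV8-irisin and 4442 ± 227 in AAV8-GFP.

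Transporters of the ABC family and of endosomal cholesterol exit had 5 higher and 9 lower means of 14 (median -0.012). Abca8a had 601 ± 97.5 normalised counts in AAV8-irisin and 698 ± 66.9 in AAV8-GFP, with a log2 difference of -0.23 ± 0.10 (SE, limma, adjusted p = 0.942). Abca7, a phospholipid transporter linked in humans to Alzheimer's disease, had 854 ± 52.6 in AAV8-irisin and 909 ± 40.4 in AAV8-GFP. Among 12 remodelling and cholesterol turnover enzymes, 8 had a higher mean (median 0.023). Nceh1, which hydrolyses cholesterol esters, had 5036 ± 60.7 normalised counts in AAV8-irisin and 4849 ± 179 in AAV8-GFP, and the hepatic lipase gene Lipc was near the filter limit at 9.58 ± 2.92 in AAV8-irisin and 13.5 ± 4.12 in AAV8-GFP. The 18 LXR, RXR and PPAR regulators and lipid targets had 9 higher and 9 lower means (median -0.00054). Nr1h2, the LXR form found in most tissues, had 1310 ± 96.6 in AAV8-irisin and 1400 ± 69.3 normalised counts in AAV8-GFP. Only 4 of 16 other apolipoproteins passed the filter, all with a lower mean (median -0.043), among them Apoo at 865 ± 43.0 in AAV8-irisin and 895 ± 43.3 in AAV8-GFP and Apool at 85.8 ± 6.06 in AAV8-irisin and 90.3 ± 12.7 in AAV8-GFP. Apoo and Apool encode subunits of a complex of the inner mitochondrial membrane. The 12 that did not pass include Apoa1, Apoa2 and Apob, apolipoproteins made mainly by liver and gut.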

How the data were processed

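Hippocampal RNA of 10 APP/PS1 mice was sequenced after capture of polyadenylated RNA, per the labels' protocols. In the submitters' processing notes stand bcl2fastq 2.17, DESeq2 (no version) and mm10, and the sources used here name no aligner, counting tool, annotation or strand setting. The authors deposited a signal per gene and library, named DESeq2 normalised counts, for 31510 symbols. With such scaling a shift common to all genes is invisible. Within a tolerance of 0.1 reads, 49% to 71.5% of a library's low values were whole multiples of its most frequent low value, so whole reads were not recovered, the count tests were not run, and depth is an estimate.

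Samples were grouped by their titles, which name separate mice. The genes tested, 17556 in all, had 10 or more normalised counts in 5 or more of the 10 libraries, including all 9 described here. limma 3.58.1 in R 4.3.3 was fitted to log2(value + 1) with a 2-group design and a prior variance that follows mean expression, two-sided, with Benjamini-Hochberg adjustment over all tested genes at 0.05, and differences are AAV8-irisin less AAV8-GFP. Pseudocount, filter, scaling, variance model, weights, a replicate block and omission of each mouse were varied. The fit was tested on simulated data with known changes, all larger than the differences of the 9 genes. Its power for changes as small as theirs was not tested. Exact two-sided permutations used all 252 assignments of 5 and 5 mice for a difference, and all 14400 orders within groups for a relation in 10 mice, in Python 3.11.15 with scipy 1.17.1. This replaced a planned random sampling of orders.

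Positions and exon lengths are those of GENCODE M21 (GRCm38, the assembly behind mm10), and 97.5% of symbols were matched. The genes, the lists and the tests were chosen with earlier results of these data known. Besides the 9, the genes named are the 2 of smallest p of each list of lipoprotein biology, the 2 most like each of the 9 between mice, and Fndc5, Prox1 and Camk2a as checks of the samples. A gene that this rule picks is not reported here.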

Additional observations from a re-analysis of the deposited data

Results flagged for a closer look

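In a set of 5 mice, the highest or lowest mouse was marked where its gap to the next exceeded 0.71 of the range (Dixon's test). Chance marks about 1 in 20 sets, and 3 of the 18 sets of the 9 genes were marked. Lrp1 in AAV8-GFP mouse 1 had 29858 normalised counts, a gap of 0.804 of the range above the other AAV8-GFP mice. Sorl1 in AAV8-irisin mouse 2 had 17328, with a gap of 0.808, in a group whose other mice differed by little. Lcat in AAV8-irisin mouse 4 had 573.5, with a gap of 0.738.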

How the results depend on the processing

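No alternative called any of the 9 genes. Over all alternatives, the adjusted p of each of the 9 by limma lay between 0.794 and 1. The count of genes called over the whole table was 0 in every setting but the one with no filter on low values, where it was 1. That gene, Gm49383, was named after its values were seen, and it was at 0 in all AAV8-irisin mice and at 2.66 to 13.9 normalised counts in AAV8-GFP mice. Directions held for Apoe, Clu, Apod, Abcg1, Lcat and Lrp1 under every setting run. With array quality weights Abca1 turned to -0.0265 and Sorl1 to -0.0298. When each mouse was left out in turn, Abca1 lay between -0.0756 and 0.0584, Sorl1 between -0.0489 and 0.0447, and Lrp8 between -0.0759 and 0.00269, and Lrp1 between -0.181 and -0.0724. The cause was not tested. A replicate block on the mouse number of the titles gave 0 genes and 0 of the 9. Same-numbered mice correlated between -0.089 and 0.03 in their deviations, and 1 of 5 correlated best with its own number. This gave no sign that the numbers pair the mice, though 5 such values cannot exclude a weak pairing. Tests on whole reads with edgeR and DESeq2 were not run. The values give no counts, so precision is limited to the spread of 5 mice a group.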
